A study of Arabidopsis thaliana with 6 samples.

Results

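The 4 DNA demethylases of Arabidopsis thaliana (ROS1, DME, DML2 and DML3) and 4 genes of the complex that brings ROS1 to its targets (IDM1, IDM2, IDM3 and MBD7) were followed by their gene identifiers in RNA-seq counts of polyadenylated RNA. These are 8 of the 33489 genes counted, and all 8 were among the 21182 tested. Whole seedlings that had spent 14 days on plates were compared in 6 samples. The zdp-1 ape2-2 group had 3 samples of a double mutant whose labels call it a knockout of both ZDP and APE2, and the Col-0 group had 3 wild-type samples. No other allele or agent is named for either group, and the labels say neither how many seedlings make up a sample nor whether the samples were grown apart. The p-values therefore cover the spread between these libraries, part or all of which may be technical.

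ROS1, DME, DML2 and DML3 are DNA glycosylases that cut 5-methylcytosine out of DNA and nick the strand, after which the gap is trimmed, filled and sealed by base excision repair. ZDP, which removes 3' phosphates from DNA, belongs to the trimming step, as does the endonuclease APE2. ROS1 is the main demethylase of vegetative tissue, while DME is best known for its action in the companion cells of the gametes. MBD7 binds densely methylated CG sites, IDM1 acetylates histone H3, and IDM2 and IDM3 are alpha-crystallin domain proteins that join them. Transcription of ROS1 is itself known to depend on DNA methylation near the start of the gene, and it is reduced when RNA-directed DNA methylation or MET1 is lost.

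The start regions of the 4 demethylase genes are shown because this dependence has been placed there for ROS1, and because 2 of the 4 genes fell while the other two did not pass the test. Each window runs 5′ to 3′ on the strand of the gene, from 250 bases before its start to 50 bases into it, in the RefSeq TAIR10.1 sequence, with starts from the deposited tables. The windows are chr2:15314758-15315057 (minus strand) for ROS1, chr4:16313116-16313415 (plus strand) for DML3, chr5:1308849-1309148 (plus strand) for DME and chr3:3088501-3088800 (minus strand) for DML2. Capitals mark CG dinucleotides, the symmetric context maintained by MET1.
ROS1: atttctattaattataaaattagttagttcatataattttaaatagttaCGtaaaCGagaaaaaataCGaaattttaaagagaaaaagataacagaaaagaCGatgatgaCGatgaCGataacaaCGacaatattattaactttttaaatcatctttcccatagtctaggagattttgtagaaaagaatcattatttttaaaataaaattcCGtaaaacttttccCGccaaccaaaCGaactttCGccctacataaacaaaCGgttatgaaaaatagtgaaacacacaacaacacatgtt
DML3: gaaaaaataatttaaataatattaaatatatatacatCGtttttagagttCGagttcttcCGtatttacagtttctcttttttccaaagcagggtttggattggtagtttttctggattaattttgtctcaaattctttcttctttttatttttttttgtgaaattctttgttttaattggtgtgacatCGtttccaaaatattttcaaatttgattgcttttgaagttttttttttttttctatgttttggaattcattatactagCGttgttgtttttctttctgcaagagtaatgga
DME: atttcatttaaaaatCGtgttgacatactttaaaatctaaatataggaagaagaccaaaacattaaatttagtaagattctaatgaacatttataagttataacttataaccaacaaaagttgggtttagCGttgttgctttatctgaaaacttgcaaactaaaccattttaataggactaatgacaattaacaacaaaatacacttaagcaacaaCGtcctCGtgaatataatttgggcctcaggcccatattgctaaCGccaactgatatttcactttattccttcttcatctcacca
DML2: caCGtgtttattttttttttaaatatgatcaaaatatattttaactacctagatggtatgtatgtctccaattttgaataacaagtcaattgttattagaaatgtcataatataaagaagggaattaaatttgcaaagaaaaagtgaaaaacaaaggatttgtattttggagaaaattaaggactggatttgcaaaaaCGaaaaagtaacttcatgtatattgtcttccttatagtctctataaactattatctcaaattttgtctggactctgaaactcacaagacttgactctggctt
The ROS1 window held 12 CG dinucleotides, more than 87.5% of the 27443 windows of protein-coding genes, whose median was 6. DML3 and DME held 5 each, and DML2 held 2. Of the IDM complex genes, IDM2 held 11, IDM1 9, IDM3 8 and MBD7 4. Methylation was not measured in these libraries. The E2F-type motif TTTNNCGC, searched on both strands, had 1 match in the ROS1 window and 1 in that of IDM3, and 7.40% of all windows held it. A match of letters is a description and not a binding site.

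The libraries held 31190605 to 37241739 counts, and 1 count was worth 0.0262 to 0.0328 CPM (counts scaled to the library total after TMM normalisation). Differences are log2 fold changes of zdp-1 ape2-2 over Col-0 with standard errors from edgeR's quasi-likelihood fit over all tested genes, with calls at a Benjamini-Hochberg adjusted p under 0.05. An exact two-sided permutation test of 3 against 3 samples cannot go below p = 0.1, the value it gave for 7 of the 8 genes. The targeted genes were lower but still counted: ZDP had 18.5, 18.9 and 16.2 CPM in zdp-1 ape2-2, against 30.2, 27.8 and 30.1 CPM in Col-0. APE2 had 5.66, 5.71 and 5.89 CPM in the mutant, against 7.20, 8.83 and 8.52 CPM in Col-0, and 33.6% of its exon bases lie under another gene. Markers of photosynthetic tissue (3 genes) summed to 15800 to 16200 CPM in the mutant and 20400 to 21000 CPM in Col-0, and root markers (3 genes) to 139 to 150 CPM in the mutant and 145 to 150 CPM in Col-0, so both parts of a seedling were present.

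Of the 8 genes, 3 were lower in zdp-1 ape2-2 (ROS1, DML3 and IDM1), 1 was higher (MBD7) and 4 were not called. Over all tested genes 43.4% were called, 21.2% lower and 22.2% higher, so the number of calls among the 8 was close to that of any genes. The groups did not overlap for 7 of the 8, against 50.3% of all tested genes. ROS1 stood apart by the size of its change: 93 of the 21182 genes (0.439%) fell by at least 2-fold, and ROS1 was among them.

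**Figure D1:**
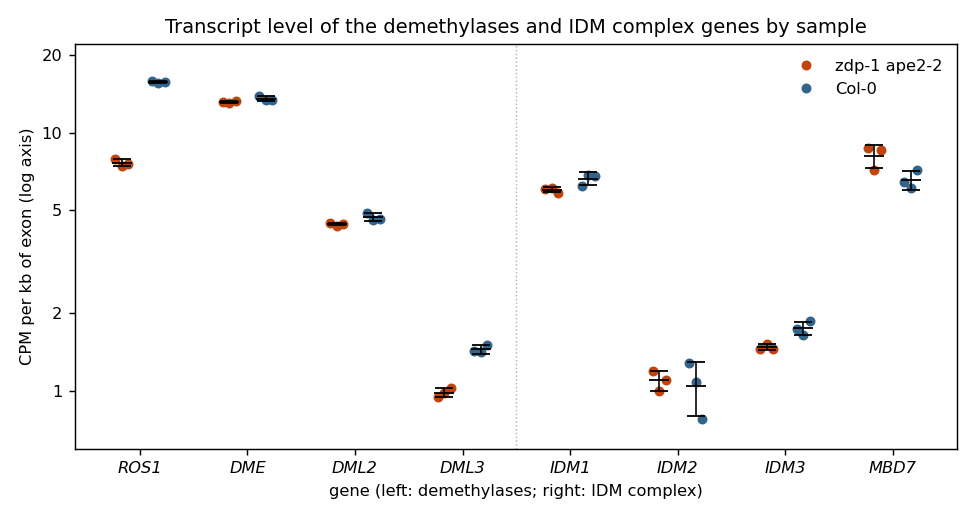
Level of each gene in every sample, as CPM per kb of exon on a log axis, with zdp-1 ape2-2 left of Col-0 for each gene; bars give the mean and SD of 3 samples. ROS1 lies between 7.44 and 7.91 in the mutant and between 15.5 and 15.8 in Col-0, the widest gap of the 8 genes.

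ROS1 (AT2G36490, chromosome 2, 15307907 to 15314807, minus strand) had 38.2, 35.9 and 36.5 CPM in zdp-1 ape2-2, against 76.4, 75.0 and 75.6 CPM in Col-0. All 3 mutant samples lay well below all 3 Col-0 samples, and replicates differed by little within each genotype. Its log2 fold change was -1.04 ± 0.03 (SE), with a 95% interval of -1.10 to -0.97 and an edgeR adjusted p of 6.02e-26. This is a level 51.3% lower in the mutant. Of 6808 genes averaging 30 CPM or more, 3 fell by at least 2-fold, ROS1 being one. No exon of another gene overlaps ROS1, and sequence of at least 90% identity elsewhere covers 3.81% of its exons.

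DML3 (AT4G34060, chromosome 4, 16313366 to 16319426), a demethylase related to ROS1, was the other demethylase that fell. It had 3.86, 3.996 and 4.17 CPM in zdp-1 ape2-2, against 5.79, 5.73 and 6.13 CPM in Col-0. The groups did not overlap, although each sample held few reads, with 147 to 158 counts in the mutant and 187 to 209 counts in Col-0. The log2 fold change was -0.55 ± 0.09 (95% interval -0.73 to -0.37, edgeR adjusted p = 3.34e-06), a level 31.7% lower. The intervals of DML3 and ROS1 do not meet, and the difference between them was not tested.

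DME (AT5G04560, chromosome 5, 1309099 to 1318520), whose protein is required for demethylation in the central cell and the vegetative cell of pollen, had 94.1, 93.3 and 94.9 CPM in zdp-1 ape2-2, against 99.7, 96.2 and 95.9 CPM in Col-0. Its log2 fold change was -0.05 ± 0.03 and was not called (edgeR adjusted p = 0.157). The 95% interval, -0.10 to 0.01, leaves out a decrease of the size seen for ROS1 or DML3. With library totals in place of TMM scaling the DME value was 0.02, so its sign depends on the scaling.

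DML2 (AT3G10010, chromosome 3, 3081735 to 3088550), which removes methylation beside ROS1 and DML3 at some loci, had 19.6, 19.2 and 19.5 CPM in zdp-1 ape2-2, against 21.6, 20.1 and 20.4 CPM in Col-0. The mutant samples were all lower by a little, and the log2 fold change of -0.09 ± 0.05 was not called (95% interval -0.19 to 0.00, edgeR adjusted p = 0.120).

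**Figure D2:**
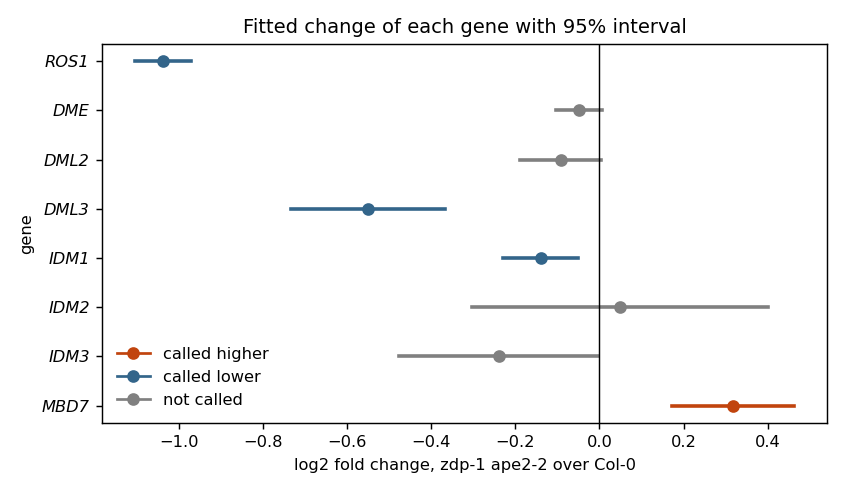
Fitted log2 fold change of each gene, zdp-1 ape2-2 over Col-0, with the 95% interval as a line; colour gives the edgeR call. ROS1 at -1.04 and DML3 at -0.55 lie apart from the other demethylases, and MBD7 at 0.32 is the one gene called higher.

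Levels per length show how the family was made up. In the mutant the 4 demethylases summed to 26.4, 25.8 and 26.2 CPM per kb of exon, against 36.04, 34.9 and 35.2 in Col-0. DME, DML2 and DML3 together summed to 18.5 ± 0.17 CPM per kb in the mutant and 19.7 ± 0.45 in Col-0 (SD, n = 3 each). ROS1 made up 29.2 ± 0.63% of the summed level in zdp-1 ape2-2 and 44.3 ± 0.34% in Col-0. DME made up 50.1 ± 0.44% in the mutant and 38.2 ± 0.28% in Col-0. These shares follow from the gene values above and carry no test of their own.

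**Figure D3:**
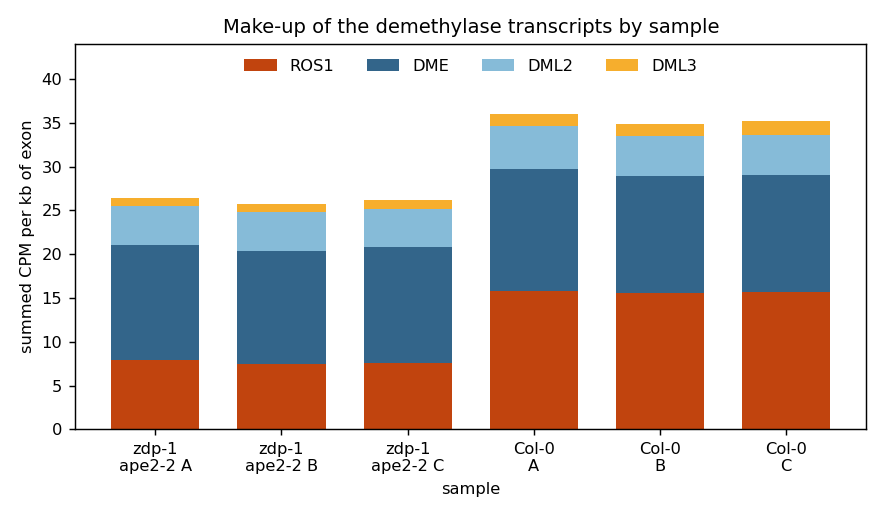
Summed CPM per kb of exon of the 4 demethylases in each sample, stacked by gene, with the 3 zdp-1 ape2-2 samples on the left and the 3 Col-0 samples on the right. The ROS1 block is shorter in all 3 mutant samples, and the DME and DML2 blocks change little.

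The order of the demethylases by level per length also differed between genotypes. In zdp-1 ape2-2 DME led with 13.0 to 13.2 CPM per kb, followed by ROS1 with 7.44 to 7.91, DML2 with 4.37 to 4.46 and DML3 with 0.952 to 1.03. In Col-0 ROS1 led with 15.5 to 15.8 CPM per kb, followed by DME with 13.3 to 13.9, DML2 with 4.58 to 4.91 and DML3 with 1.41 to 1.51. No neighbours in either order overlapped. Among the IDM complex genes in zdp-1 ape2-2, MBD7 ranged from 7.18 to 8.69 CPM per kb and overlapped ROS1, above IDM1 with 5.86 to 6.11 and IDM3 with 1.46 to 1.53. IDM2, at 1.003 to 1.20 CPM per kb in the mutant, overlapped DML3. In Col-0 IDM1 ranged from 6.19 to 6.88 CPM per kb and MBD7 from 6.10 to 7.16, which overlap, above IDM3 with 1.65 to 1.86 and IDM2 with 0.785 to 1.28. The 4 IDM complex genes together summed to 16.7 ± 0.83 CPM per kb in the mutant and 16.0 ± 0.55 in Col-0.

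MBD7 (AT5G59800, chromosome 5, 24094359 to 24096532), the reader of methylated CG sites, was higher in the mutant. It had 12.4, 10.2 and 12.2 CPM in zdp-1 ape2-2, against 9.17, 8.69 and 10.2 CPM in Col-0. The groups did not overlap, but mutant replicate B lay just above Col-0 replicate C. The log2 fold change was 0.32 ± 0.07 (95% interval 0.17 to 0.46, edgeR adjusted p = 0.000398), or 1.25-fold. With an assumed biological coefficient of variation of 0.1 it was not called (edgeR adjusted p = 0.123).

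IDM1 (AT3G14980, chromosome 3, 5039812 to 5045525), the histone acetyltransferase, had 27.2, 27.4 and 26.3 CPM in zdp-1 ape2-2, against 27.7, 30.8 and 30.6 CPM in Col-0. Col-0 replicate A lay close to the mutant samples. The log2 fold change was -0.14 ± 0.04 (95% interval -0.23 to -0.05, edgeR adjusted p = 0.00854). The call was lost without Col-0 replicate B, where the edgeR adjusted p was 0.0695, and with library totals in place of TMM, where the log2 fold change was -0.08 and the edgeR adjusted p was 0.160. IDM1 also missed the threshold with the assumed coefficient of variation of 0.1, at an edgeR adjusted p of 0.622. Exons of an antisense gene lie over 4.57% of its exon bases.

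IDM3 (AT1G20870, chromosome 1, 7259023 to 7261524), an alpha-crystallin domain protein of the complex, had 2.57, 2.68 and 2.56 CPM in zdp-1 ape2-2, against 3.07, 2.91 and 3.28 CPM in Col-0. The groups did not overlap, and the log2 fold change of -0.24 ± 0.12 was not called (edgeR adjusted p = 0.0956). IDM2 (AT1G54840, chromosome 1, 20452593 to 20454266), the other alpha-crystallin domain protein, had 1.60, 1.34 and 1.48 CPM in zdp-1 ape2-2, against 1.72, 1.45 and 1.05 CPM in Col-0, and the groups overlapped. Its log2 fold change was 0.05 ± 0.17 (edgeR adjusted p = 0.848). At 32 to 62 counts per library the interval of IDM2, -0.30 to 0.40, allows a moderate change in either direction. Antisense genes cover 2.5% of the exon bases of IDM3 and 5.91% of those of IDM2.

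**Figure D4:**
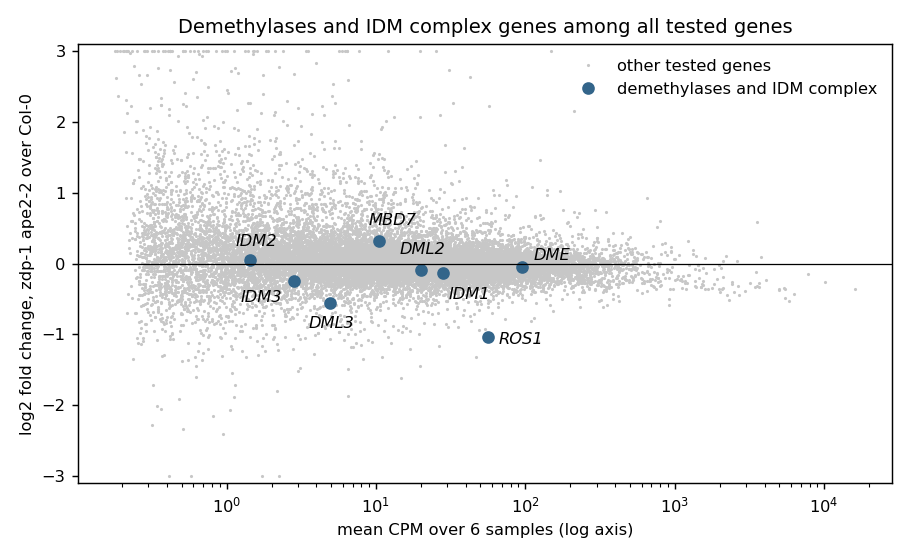
Log2 fold change, zdp-1 ape2-2 over Col-0, against mean CPM over 6 samples (log axis) for all 21182 tested genes in grey, with the demethylases and IDM complex genes in blue; 62 genes beyond 3 in size are drawn at the edge. ROS1 lies at the lower margin of genes of its level, and the other genes lie inside the cloud.

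The position of the genes was examined because both mutated loci share chromosomes with members. IDM1 lies 26.5 kb from ZDP on chromosome 3. Of the 6 tested genes between them, 2 were lower and none was higher, with values from -0.31 to 0.06 and a median log2 fold change of -0.04. DML3 lies 732 kb from APE2 on chromosome 4. Within 10 kb of DML3, 1 of 5 tested genes was higher and 1 lower, with values from -0.23 to 0.08. Within 10 kb of ROS1, 3 of 5 tested genes were higher and none was lower, with values from -0.06 to 0.20. Over all tested genes 22.2% were called higher and 21.2% lower. None of these neighbours changed by as much as DML3 or ROS1. HEME1, between ZDP and IDM1, had a log2 fold change of -0.31, larger in size than the -0.14 of IDM1. An effect of position was not tested.

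Some tissue markers moved with the genotype as well. All 3 markers of photosynthetic tissue fell, and markers of companion cells (3 genes, 2 of them lower) summed to 336 to 354 CPM in the mutant and 400 to 411 CPM in Col-0. Floral markers (3 genes, all higher) summed to 23.8 to 24.5 CPM in the mutant and 9.39 to 10.1 CPM in Col-0. Both seed storage markers were higher, with sums of 4.89 to 5.30 CPM in the mutant and 0.0656 to 0.111 CPM in Col-0. Markers of dividing cells (3 genes, 1 higher and 2 lower) summed to 121 to 124 CPM in the mutant and 122 to 132 CPM in Col-0. Of the root markers 1 was higher and 2 lower, and no marker of any list was at 0 in every library. The part of these shifts in the change of ROS1 was not tested, and in whole seedlings fewer cells of a type and less RNA per cell cannot be told apart.

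The pathway around the demethylases was read from 7 lists with tested genes. Of 50 tested genes in these lists, 13 were higher and 12 lower, against 22.2% higher and 21.2% lower over all tested genes. Their median log2 fold change was 0.01, against a median of 0.00 over all tested genes. The split depended on the scaling: with library totals alone 21 were higher and 5 lower, and over all genes 71.9% of the calls were higher, against 51.1% with TMM.

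In the steps that follow excision, 3 of 11 tested genes were higher, 3 were lower and 5 were not called, with a median of 0.06. PARP2, a poly(ADP-ribose) polymerase that responds to strand breaks, had 54.8, 53.7 and 54.0 CPM in the mutant, against 10.7, 11.4 and 11.8 CPM in Col-0, a log2 fold change of 2.26 ± 0.04 (edgeR adjusted p = 5.29e-33). Its relative PARP1 had a log2 fold change of 0.58 ± 0.05. The 2 targeted genes belong to this list and were lower, ZDP by a log2 fold change of -0.71 ± 0.05 and APE2 by one of -0.51 ± 0.08. Among the other DNA glycosylases, which remove damaged bases or uracil, 2 of 4 were higher and 1 lower, with UNG at 0.45 ± 0.11, FPG at 0.14 ± 0.05 and MBD4L at -0.18 ± 0.07. The calls of the last pair were fragile. FPG missed the threshold without Col-0 replicate A or C or mutant replicate A or B (edgeR adjusted p of 0.0641 to 0.114), and MBD4L did so without any 1 sample except Col-0 replicate C (edgeR adjusted p of 0.053 to 0.198).

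Genes related to the IDM complex or to recruitment of ROS1 moved in both directions. They include the SWR1 chromatin remodeller and the histone variant H2A.Z that it deposits, and not each of them is known to recruit ROS1. Of 11 tested, 2 were higher, 3 lower and 6 not called, with a median of -0.02. Of the H2A.Z genes HTA9 fell by 0.24 ± 0.03 on the log2 scale, while HTA8 rose by 0.30 ± 0.06 and HTA11 by 0.11 ± 0.04. NPX1, a bromodomain protein that works with SWR1, fell by 0.26 ± 0.03, and 25.4% of its exon bases lie under antisense genes. With the assumed coefficient of variation of 0.1 no gene of this list was called. Of the FACT histone chaperone, which DME needs at many of its targets, SPT16 fell by 0.12 ± 0.03, a call lost with library totals (edgeR adjusted p = 0.0869), and SSRP1 was not called.

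The demethylases carry an iron-sulfur cluster, and none of the 7 genes of its cytosolic assembly was called by edgeR, DESeq2 or limma-voom, nor had an unadjusted p below 0.05 in edgeR. The best expressed were NBP35 with 40.7 ± 1.05 CPM in the mutant and 39.4 ± 1.29 CPM in Col-0, and MET18, which binds ROS1, with 35.7 ± 1.36 CPM in the mutant and 36.2 ± 2.16 CPM in Col-0 (SD, n = 3 each). With library totals alone, 4 of the 7 were called higher.

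Factors listed as needed for ROS1 expression differed in direction. Of 12 tested, 4 were higher, 4 lower and 4 not called, with a median of 0.00. MET1, the maintenance methyltransferase of CG sites, had 115, 112 and 115 CPM in zdp-1 ape2-2, against 79.2, 79.1 and 80.7 CPM in Col-0, and rose by 0.52 ± 0.03 (edgeR adjusted p = 8.17e-19). The gene listed as DNAJ2 (AT5G22060), a DnaJ-type chaperone, rose by 0.18 ± 0.03, with 21.2% of its exon bases under an antisense gene. Whether this locus is the one needed for ROS1 expression was not checked, and it is counted among the 4 higher. Over all tested genes 21.2% were called lower. The 7 genes of RNA-directed DNA methylation are a subset formed after the values were seen. They held all 4 lower calls of this list, with 1 higher and 2 not called. AGO4, the effector protein of that pathway, fell by 0.12 ± 0.03, and neither its call nor its size held with library totals (-0.06, edgeR adjusted p = 0.141). DRD1, a chromatin remodeller that works with RNA polymerase V, fell by 0.22 ± 0.06 (edgeR adjusted p = 0.00245). DRM2, the methyltransferase of the pathway, fell by 0.16 ± 0.05 (edgeR adjusted p = 0.0142), and DCL3, which cuts its small RNAs, by 0.13 ± 0.05 (edgeR adjusted p = 0.0409). The DRM2 call was lost without mutant replicate B or C (edgeR adjusted p of 0.0891 and 0.0584). The DCL3 call was lost without Col-0 replicate A or C or mutant replicate B or C (edgeR adjusted p of 0.0653 to 0.151). Both were also lost with library totals and with DESeq2. With the assumed coefficient of variation of 0.1 none of the 4 lower calls held (edgeR adjusted p of 0.346 to 0.684).

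Loci known to need ROS1 for full expression, RMG1 and RLP43 among them when seedlings meet a bacterial elicitor, were few and weakly expressed. Of 4 listed, 3 were tested, of which 2 were higher and none was lower by edgeR, DESeq2 or limma-voom, and all 3 had an unadjusted p below 0.05 in edgeR. RMG1, an immune receptor gene, had 68, 51 and 41 counts in the mutant, against 10, 20 and 18 counts in Col-0, a log2 fold change of 1.58 ± 0.25 (edgeR adjusted p = 1.17e-06). RLP43, a receptor-like protein gene, had 53, 50 and 56 counts in the mutant, against 15, 18 and 10 counts in Col-0, a log2 fold change of 1.73 ± 0.23 (edgeR adjusted p = 3.38e-08). EPF2, a stomatal patterning peptide gene whose promoter gains methylation in ros1 mutants, had 3.25, 3.52 and 3.30 CPM in the mutant, against 4.32, 3.59 and 4.03 CPM in Col-0. Its log2 fold change of -0.24 ± 0.11 was not called (edgeR adjusted p = 0.0605), and without Col-0 replicate B it was (-0.32, edgeR adjusted p = 0.0272).

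**Figure D5:**
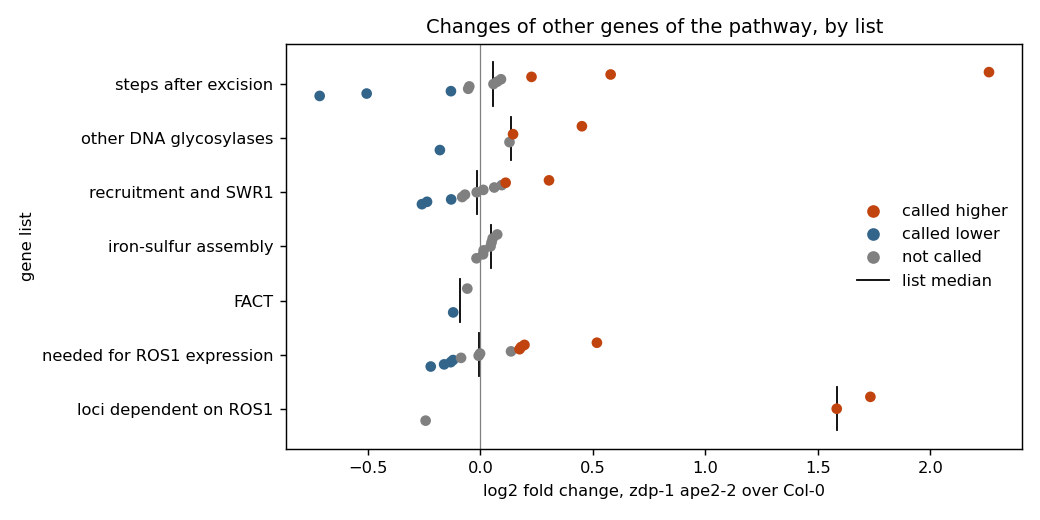
Log2 fold change, zdp-1 ape2-2 over Col-0, of each tested gene in 7 lists of the pathway; colour gives the edgeR call and the black line the list median. The iron-sulfur assembly genes sit close to 0, RMG1 and RLP43 lie at 1.58 and 1.73, and PARP2 lies farthest to the right.

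Genes most like ROS1 across the 6 samples were looked for among 19214 others averaging 1 CPM or more, by Pearson correlation of log2 CPM. With 2 groups such values mainly reflect the difference between genotypes, and 354 genes passed 0.99. The 5 highest were HEMA1 (a tetrapyrrole synthesis gene), MSRB6 (a methionine sulfoxide reductase), PHOT1 (a blue light receptor), TL29 (a thylakoid lumen protein) and SIGF (a plastid sigma factor), and their log2 fold changes ran from -0.74 to -0.27. Nearest in the size of the change, among called genes averaging 30 CPM or more, were GASA6 at -1.09, PRP2 at -0.94, AT1G33811 at -0.93, AT1G66100 at -0.90 and sks9 at -0.89.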

How the data were processed

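Polyadenylated RNA of seedlings was sequenced in 6 samples, grouped by title and genotype label. The authors deposited raw read counts per gene, 1 table per sample. Per the submitters' processing notes, reads were aligned with STAR to TAIR10. How reads were counted, whether strand was used and how reads with several alignments were treated is not given in the sources used here, so antisense reads cannot be told apart. All 33489 identifiers matched locus tags of TAIR10.1, and the 8 genes have the same coordinates there. Copies were searched with BLAST 2.17.0 at 90% identity.

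Genes were kept by filterByExpr, scaled with TMM and tested with the quasi-likelihood F test of edgeR 4.0.16 in R 4.3.3, with genotype as the only term. The standard error of a log2 fold change was taken from F (the change over its square root). CPM per kb divides CPM by the summed exon length in the tables. The common biological coefficient of variation was 1.99%, and pairs of replicates differed by a chi-square of 1.55 to 1.92 per gene, so no pair was 1 library deposited again. The fit was tested on simulated data. Alternatives used DESeq2 1.42.0, limma 3.58.1, other scalings and filters, and each sample left out.

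The genes and lists were chosen with earlier results of these data known. Named were the 8 genes, ZDP and APE2, from each list up to 3 called genes by smallest p (where none was called, the 2 best expressed), and the genes most like ROS1. SSRP1, EPF2, DRD1, DRM2, DCL3, FWA, FIS2, HTA11 and HEME1 were named after their values were seen.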

Additional observations from a re-analysis of the deposited data

How the results depend on the processing

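ROS1 and DML3 kept their direction and their call under all 15 alternatives run, with log2 fold changes from -1.06 to -0.97 for ROS1 and from -0.58 to -0.49 for DML3. MBD7 lost its call under 1 of the 15 and IDM1 under 3, while DME, DML2, IDM2 and IDM3 were called under none. Scaling by library totals alone left 2717 genes lower, and 21 genes of the pathway lists were higher and 5 lower. With an assumed biological coefficient of variation of 0.1, 1668 genes were higher and 760 lower over all, 0 of the 8 genes was higher, and 6 pathway genes were higher and 2 lower. The 2 lower pathway genes were the targeted ZDP and APE2. Without correction for exon length ROS1 made up 23.9% of the demethylase counts in zdp-1 ape2-2 and 37.9% in Col-0. Leaving out each sample gave 4220 to 4397 genes higher and 3994 to 4224 lower, 2 to 3 of the 8 genes lower, 9 to 14 pathway genes higher and 8 to 12 lower. The cause of these shifts was not tested.

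The replicate letters did not pair the samples: deviations of same-letter samples correlated at -0.01, 0.06 and 0.01 over genes, and mutant replicates A and C correlated best with another letter. With the replicate block 4830 genes were higher and 4620 lower, 1 of the 8 was higher and 3 lower, and ROS1 stayed at -1.04. Depth limits IDM2, IDM3 and DML3 most, and intervals cover counting error and the spread of these samples only.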

Other observations

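Genes imprinted in the endosperm, where their parental expression is known to depend on DME, had few counts in these seedlings. None of the 4 listed passed the filter on low counts. PHE1, a MADS-box gene, had 9, 18 and 16 counts in zdp-1 ape2-2, against 8, 10 and 5 counts in Col-0, and MEA, a Polycomb gene, had 17, 12 and 6 counts in the mutant, against 8, 4 and 5 counts in Col-0. FWA, a homeobox gene kept silent by promoter methylation in vegetative tissue, had 5, 8 and 5 counts in the mutant, against 0, 1 and 0 counts in Col-0. FIS2 had 4 counts in mutant replicate B and 0 in the other libraries. Without a filter on low counts 1 of the 4 was called higher by edgeR, and these counts are few enough that no fold is given.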
